A study of Mus musculus with 4 samples.

Results

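MHC class I molecules carry peptides from inside the cell to its surface, and 10 genes that build, load and switch on this system were followed in cultured mouse astrocytes. The genes were a fixed list of symbols matched exactly to the gene names of the expression table, and all 10 were found among the 25393 genes it holds. They were the heavy chains H2-K1 and H2-D1, the light chain B2m, the peptide transporter subunits Tap1 and Tap2, the loading factor Tapbp, the inducible proteasome subunits Psmb8, Psmb9 and Psmb10, and the transcriptional coactivator Nlrc5. RNA was sequenced from untreated primary astrocyte cultures of C57BL/6 mice at postnatal day 1, prepared from cortex and hippocampus, with 2 libraries from wild-type (WT) pups and 2 from pups labelled tet1-/-. The labels give 2 mice per isolation, about 7 days in culture, shaking at 260 rpm and 24 further hours before RNA extraction. The study describes its tet1-/- pups as constitutive knockouts, a deletion not limited to astrocytes. The labels do not say that the libraries of a genotype came from separate litters, so p-values measure the spread between these libraries, which may be partly technical.

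A class I molecule pairs a heavy chain with beta-2-microglobulin. Proteasomes cut cytosolic proteins into peptides, the TAP transporter moves the peptides into the endoplasmic reticulum, and tapasin holds an empty class I molecule beside TAP until a peptide fits. In resting brain cells these genes are mostly weakly expressed, and interferons raise them in astrocytes and microglia in part through NLRC5.

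The promoter windows of the heavy and light chains were examined first, because the members with the highest levels share elements there. The windows come from RefSeq on GRCm38.p6, run 5′ to 3′ on the strand of the gene and hold 250 bases before the start of transcription and 50 after it. Of the 10 genes, 8 had a window, and Tap2 and Nlrc5 had none. Capitals mark matches on either strand to GGGNNNNNCC, a form of the NF-kappaB site, AANNGAAA, the core of interferon regulatory factor sites, TGACG, the core bound by CREB and ATF factors, and CCAAT, the NF-Y box, read as ATTGG on the other strand. Neighbouring or overlapping matches join into one run of capitals. The H2-K1 window lies at chr17:34000298-34000597 on the minus strand, that of H2-D1 at chr17:35262844-35263143 on the plus strand, that of B2m at chr2:122147437-122147736 on the plus strand and that of Tap1 at chr17:34187306-34187605 on the plus strand.
H2-K1: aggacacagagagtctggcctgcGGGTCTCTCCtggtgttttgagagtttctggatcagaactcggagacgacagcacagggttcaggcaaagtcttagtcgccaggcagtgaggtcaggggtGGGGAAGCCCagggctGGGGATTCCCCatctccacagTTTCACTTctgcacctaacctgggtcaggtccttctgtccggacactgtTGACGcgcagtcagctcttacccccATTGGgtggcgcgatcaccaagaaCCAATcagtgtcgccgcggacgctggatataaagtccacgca
H2-D1: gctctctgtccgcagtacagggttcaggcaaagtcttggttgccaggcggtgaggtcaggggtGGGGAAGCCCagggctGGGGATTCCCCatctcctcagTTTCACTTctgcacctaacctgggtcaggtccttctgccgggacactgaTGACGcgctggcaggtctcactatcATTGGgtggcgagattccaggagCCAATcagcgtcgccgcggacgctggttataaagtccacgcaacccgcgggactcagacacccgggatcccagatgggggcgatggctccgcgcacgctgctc
B2m: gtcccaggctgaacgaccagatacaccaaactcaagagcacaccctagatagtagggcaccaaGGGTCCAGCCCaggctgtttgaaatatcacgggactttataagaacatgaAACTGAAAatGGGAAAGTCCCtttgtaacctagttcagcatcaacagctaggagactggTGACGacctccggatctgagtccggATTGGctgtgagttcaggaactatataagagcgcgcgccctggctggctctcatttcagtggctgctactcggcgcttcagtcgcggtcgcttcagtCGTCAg
Tap1: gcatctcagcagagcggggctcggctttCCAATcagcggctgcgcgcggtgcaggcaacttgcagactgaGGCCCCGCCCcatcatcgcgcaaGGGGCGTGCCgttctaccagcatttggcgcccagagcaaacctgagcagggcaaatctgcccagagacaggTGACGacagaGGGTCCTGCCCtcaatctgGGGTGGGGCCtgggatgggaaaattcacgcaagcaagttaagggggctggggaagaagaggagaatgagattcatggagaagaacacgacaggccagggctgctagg

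H2-K1, H2-D1 and B2m each held all 4 motifs. In all 3, TGACG was followed by exactly 20 bases and then ATTGG, an arrangement present in 31 of 32851 promoter windows (0.094%), which belong to 27 genes. This spacing was looked for after it had been seen in the members. Besides H2-K1 and H2-D1, H2-M3 was the other class I heavy chain gene with it, at 287 and 350 normalized counts in WT and 38.5 and 53.2 under the KO label (log2 fold change -2.78, limma adjusted p = 0.141). H2-K1 and H2-D1 also shared the palindrome GGGGATTCCCC, found in 10 windows (0.030%), and from it to the inverted CCAAT box 89 of 100 bases were equal. In B2m the kappaB match read GGGAAAGTCCC and lay next to the interferon regulatory factor core. Psmb9 is transcribed the other way from the same stretch, and 275 bases of the Tap1 window lie in the Psmb9 window too. It held CREB core, NF-Y box and kappaB matches but no interferon regulatory factor core. The single motifs are common, since GGGNNNNNCC was present in 50.8% of all windows, AANNGAAA in 23.9%, TGACG in 20.8% and CCAAT in 37.4%. Of the 4 motifs Tapbp held only the NF-Y box, and Psmb8 and Psmb10 held none.

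The table gives 1 normalized read count per gene and library, that is, a read count divided by a size factor of the library. Reads on genes numbered from 18749610 to 22673555 per library, and 3 reads, the detection floor used here, equal 2.70 to 3.21 normalized counts. The libraries of one label differed by more than sampling noise, with a median chi-square per gene of 8.04 for the WT pair and 27.1 for the KO-labelled pair against 0.455 for noise alone. Tet1 was at 266 and 121 normalized counts in WT and at 173 and 463 under the KO label, so its total count was not lower under the KO label. A total count also includes transcripts that lack the deleted part. The tet1-/- libraries are therefore called KO-labelled cultures. The paper itself reports that Tet1 mRNA could hardly be detected in its knockout astrocytes. By dot blot it found a lower global level of the DNA mark hydroxymethylcytosine in them. It names 3 biological repeats per genotype for RNA sequencing, while 2 libraries per label were available here. Xist was at 8.54 and 0.92 normalized counts in WT and at 2896 and 13367 under the KO label, and Y-linked Ddx3y was at 1484 and 398 in WT and at 0 and 314 under the KO label, so sex and genotype label cannot be told apart in these cultures. All cultures expressed the astrocyte markers Gfap, Slc1a3, Aldoc and Aqp4, and 9 such markers summed to 1490 and 1434 FPKM (reads scaled to gene length and library total) in WT and to 2570 and 380 under the KO label. Gfap alone was at 687 and 765 FPKM in WT and at 1871 and 117 under the KO label. Of the 9, 7 had a log2 fold change below 0 and 2 above 0 (median -0.68). For 5 both KO-labelled cultures were below both WT libraries and for 1 above, against 25.4% and 22.5% of all tested genes. At an unadjusted limma p under 0.05, 2 were lower, against 9.18% of all tested genes. The KO-labelled cultures stood far apart, with Gfap 17.6-fold higher in replicate 1 than in replicate 2.

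H2-K1 (ENSMUSG00000061232, chromosome 17 from 33996017 to 34000333, minus strand) encodes one of the classical heavy chains. It was at 16385 and 18392 normalized counts in WT, against 2214 and 3988 under the KO label. Both KO-labelled cultures lay far below both WT libraries, at 17.8% of the WT mean, and the closest pair of libraries still differed 4.11-fold. The log2 fold change (labelled KO over WT) was -2.55 with a standard error of 0.38 and an adjusted p of 0.134 (limma, Benjamini-Hochberg over 22094 genes). Limma was fitted to log2(normalized count + 1), and a gene counted as called at an adjusted p under 0.05.

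H2-D1 (ENSMUSG00000073411, chromosome 17 from 35262730 to 35267499, plus strand), the other classical heavy chain of this strain, was at 13103 and 15530 normalized counts in WT, against 1510 and 3071 under the KO label. The groups were again far apart, with a log2 fold change of -2.73 (SE 0.42, limma adjusted p = 0.137). In both heavy chains the second KO-labelled culture was the higher one, by 1.80-fold for H2-K1 and 2.03-fold for H2-D1. Reads of the heavy chains can be split among near copies. Of all 50-base stretches of H2-K1 transcripts 9.63% also occur in another gene, and of those of H2-D1 12.8%, most often in each other, H2-Q7, H2-Q10 and H2-Q1. At 100 bases the shares were 0.96% and 3.59%.

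B2m (ENSMUSG00000060802, chromosome 2 from 122147686 to 122153083, plus strand), the light chain shared by all class I molecules, was the most abundant member per length. Its normalized counts were 18794 and 15698 in WT and 4529 and 7843 under the KO label. The KO-labelled cultures stayed below WT at 35.9% of its mean, a smaller distance than for the heavy chains. The log2 fold change was -1.53 (SE 0.38, limma adjusted p = 0.231). None of its 50-base stretches occurs in another gene, though Patl2 overlaps it on the other strand.

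The balance of light to heavy chain transcripts was compared within each library. B2m was at 1.92 and 1.40 times the summed FPKM of H2-K1 and H2-D1 in WT, and at 3.67 and 3.35 times in the KO-labelled cultures. Every KO-labelled value was above every WT value, by 1.10 on the log2 scale of the ratio (exact two-sided permutation test, p = 0.333, the smallest that 2 libraries against 2 allow). H2-K1 exceeded H2-D1 in FPKM in all 4 libraries, by 1.24-fold and 1.17-fold in WT and by 1.45-fold and 1.28-fold in the KO-labelled cultures. That ratio also did not overlap between the labels, but the difference was only 0.18 on the log2 scale (exact two-sided permutation test, p = 0.333).

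**Figure D1:**
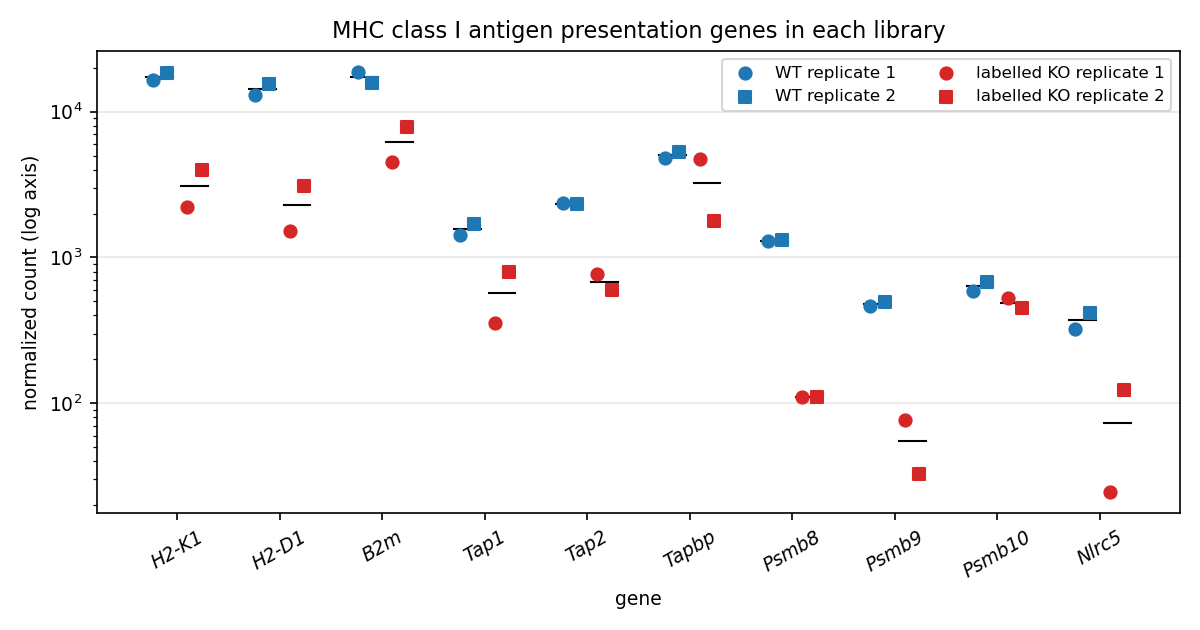
Normalized counts of the 10 class I presentation genes on a log axis, 1 point per library, blue for WT and red for the KO-labelled cultures, with circles for replicate 1, squares for replicate 2 and black lines at the group means. Every red point lies below both blue points of its gene, by the widest margin for Psmb8 and by the narrowest for Tapbp, where KO-labelled replicate 1 (4740) sits just under the WT libraries (4800 and 5319).

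The transporter and loading genes had smaller estimated differences than the heavy chains, though the gap between these genes was not tested. Tap1 (ENSMUSG00000037321, chromosome 17 from 34187553 to 34197225, plus strand) was at 1421 and 1690 normalized counts in WT, against 355 and 794 under the KO label. The groups did not overlap, and the second KO-labelled culture stood closer to WT than the first. The log2 fold change was -1.54 (SE 0.46, limma adjusted p = 0.276), and it was -0.96 without KO-labelled replicate 1 and -2.12 without KO-labelled replicate 2.

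Tap2 (ENSMUSG00000024339, chromosome 17 from 34203527 to 34216321, plus strand), which forms the transporter with Tap1, was at 2351 and 2318 normalized counts in WT, against 766 and 600 under the KO label. The libraries of each label lay close together, and those labelled KO were at 29.3% of the WT mean. Its log2 fold change was -1.78 (SE 0.29, limma adjusted p = 0.147). Gm20496 and Gm15821, both non-coding, overlap Tap2 on the other strand, and without strand information their reads cannot be told apart.

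Tapbp (ENSMUSG00000024308, chromosome 17 from 33915899 to 33929288, plus strand), which encodes tapasin, differed widely between the KO-labelled cultures. It was at 4800 and 5319 normalized counts in WT, against 4740 and 1787 under the KO label. Replicate 1 of the KO label was 1.01-fold below the lower WT library, and replicate 2 was 2.65-fold below replicate 1. The log2 fold change of -0.80 (SE 0.51, limma adjusted p = 0.539) was -0.09 without KO-labelled replicate 2 and -1.50 without KO-labelled replicate 1. Zbtb22 overlaps Tapbp on its own strand and the antisense gene Gm19412 on the other.

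The inducible proteasome subunits gave both the widest and the narrowest differences among the members. Psmb8 (ENSMUSG00000024338, chromosome 17 from 34197721 to 34201454, plus strand), the inducible counterpart of Psmb5, was at 1302 and 1312 normalized counts in WT, against 110 and 110 under the KO label. Libraries of one label were nearly equal and the labels stood 11.9-fold apart. The log2 fold change was -3.56 (SE 0.31, limma adjusted p = 0.0777). That p was the lowest of any gene tested and was shared by 30 genes.

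Psmb9 (ENSMUSG00000096727, chromosome 17 from 34181988 to 34187764, minus strand), the inducible counterpart of Psmb6, was at 462 and 493 normalized counts in WT, against 77.1 and 32.4 under the KO label. Both KO-labelled cultures were below WT by at least 5.99-fold in every pair of libraries. The log2 fold change was -3.23 (SE 0.53, limma adjusted p = 0.147), and it was -3.84 without KO-labelled replicate 1 and -2.61 without KO-labelled replicate 2. Psmb9 and Tap1 share 212 bases head to head, so reads there cannot be assigned without strand.

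Psmb10 (ENSMUSG00000031897, chromosome 8 from 105935735 to 105938444, minus strand), the inducible counterpart of Psmb7, was at 589 and 679 normalized counts in WT, against 528 and 451 under the KO label. The groups did not overlap, yet the closest libraries differed only 1.12-fold. Its log2 fold change was -0.37 (SE 0.31, limma adjusted p = 0.627).

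The constitutive partners of these subunits showed values in the other direction. Psmb5, from the list of the constitutive core, was at 1437 and 1875 normalized counts in WT, against 2345 and 2711 under the KO label (log2 fold change 0.62, limma adjusted p = 0.434). Over the 14 constitutive subunits of the 20S core, the log2 fold change was above 0 for 14 and ranged from 0.20 to 0.73, with a median of 0.53, and 0 of them passed an unadjusted p under 0.05. For 12 of the 14 both KO-labelled cultures were above both WT libraries, against 22.5% of all tested genes.

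Set against its constitutive partner, each inducible subunit had a lower ratio in both KO-labelled cultures than in either WT library. Psmb8 was at 29.8% and 23% of the FPKM of Psmb5 in WT and at 1.54% and 1.33% in the KO-labelled cultures. The ratio differed 18.2-fold between the labels (exact two-sided permutation test, p = 0.333). Psmb9 was at 11.1% and 9.32% of Psmb6 in WT and at 1.28% and 0.46% in the KO-labelled cultures, a 13.2-fold difference (exact two-sided permutation test, p = 0.333). On the log2 scale that difference was -3.73, and it was -2.99 without KO-labelled replicate 2 and -4.47 without KO-labelled replicate 1. Psmb10 was at 95.2% and 73.7% of Psmb7 in WT and at 43.7% and 34.8% in the KO-labelled cultures. This 2.15-fold difference (exact two-sided permutation test, p = 0.333) stood beside a log2 fold change of -0.37 for Psmb10 and 0.73 for Psmb7. In WT, Psmb10 was close to its partner in level, while Psmb8 and Psmb9 were well below theirs.

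**Figure D2:**
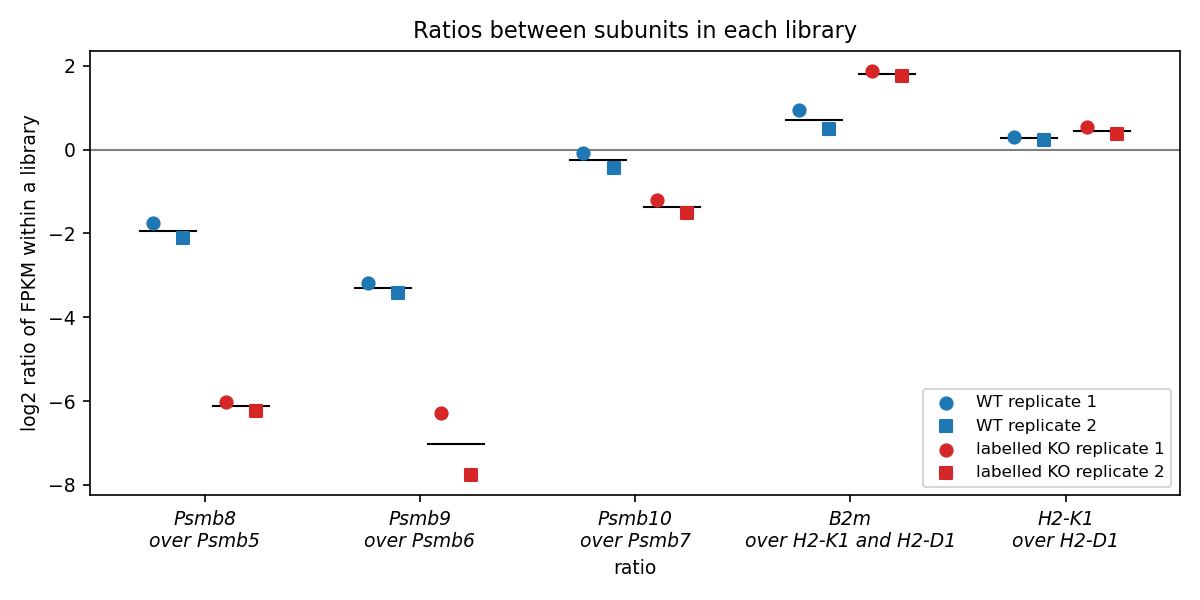
Log2 ratio of FPKM between subunits within each library, 1 point per library, blue for WT and red for the KO-labelled cultures, with black lines at the group means and a grey line where both subunits are equal. The 3 inducible proteasome subunits lie lower against their constitutive partners in both KO-labelled cultures (differences of -4.19, -3.73 and -1.10), and B2m lies higher against the heavy chains (1.10).

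Nlrc5 (ENSMUSG00000074151, chromosome 8 from 94434356 to 94527272, plus strand), the coactivator that assembles on class I promoters, was the least abundant member per length. It was at 323 and 417 normalized counts in WT, against 24.6 and 123 under the KO label. The groups did not overlap, and the KO-labelled cultures differed from each other 4.98-fold, the widest spread within a label of any member. Its log2 fold change was -2.71 (SE 0.80, limma adjusted p = 0.277), and it moved from -3.85 without KO-labelled replicate 2 to -1.58 without KO-labelled replicate 1. The non-coding gene 9330175E14Rik and the microRNA gene Mir7072 overlap it.

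Across the members, 10 of 10 were lower in both KO-labelled cultures than in either WT library, against 25.4% of all tested genes. The members were chosen with earlier results of these data known, so the counts given here describe them and are not independent support. The median log2 fold change was -2.16 for the members and -0.07 for all tested genes. At an unadjusted p under 0.05, 8 of 10 were lower, all but Tapbp and Psmb10, against 9.18% of all tested genes, and 0 were higher, against 4.54%. A log2 fold change at or below -1 was found for 8 of 10, against 21.4% of all tested genes. The count at an unadjusted p under 0.05 fell to 5 without WT replicate 1 (3.82% of all genes lower) and to 5 without WT replicate 2 (4.18%). It was 9 without KO-labelled replicate 1 (13.7% of all genes lower) and 8 without KO-labelled replicate 2 (9.69%). With adjustment over all genes, limma called 0 of 10 members and 0% of all tested genes. At an unadjusted p under 0.05, 3032 genes passed in either direction, 2028 of them lower. The edgeR quasi-likelihood test on the recovered reads also called 0 members and 0 genes in all. At its unadjusted p under 0.05, 8 members were lower, against 1799 of all tested genes (8.14%). In either direction 2733 genes passed that threshold. DESeq2 on the same reads called 7 of 10 as lower, against 4.8% of the genes it tested, and 0 as higher, against 1.69%. It did not call Tap1 (adjusted p = 0.116), Tapbp (0.725) and Psmb10 (0.808). The call thus rested on the tool for 7 members, while these 3 were called by none of the tools. Quantile normalization moved the median of all genes to 0.07, and the members kept their direction under it.

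**Figure D3:**
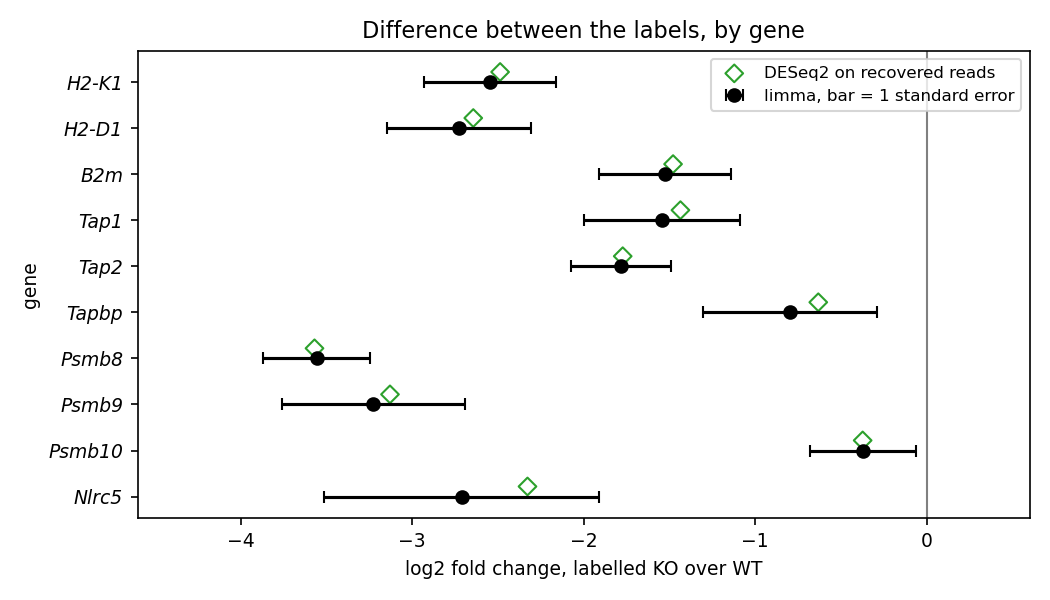
Log2 fold change of each class I presentation gene between the labels, with black points and bars for the limma estimate and 1 standard error and green diamonds for DESeq2 on the recovered reads. The estimates run from -3.56 for Psmb8 to -0.37 for Psmb10, and the bars of Nlrc5 (0.80), Psmb9 (0.53) and Tapbp (0.51) are the widest.

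The members also differed in which KO-labelled culture was lower. H2-K1, H2-D1, B2m, Tap1 and Nlrc5 were over 1.2-fold higher in KO-labelled replicate 2 than in replicate 1, while Tap2, Tapbp and Psmb9 were over 1.2-fold lower there. Psmb8 and Psmb10 differed by less. In the WT libraries all 10 agreed within 1.29-fold. Neighbours on the chromosome were split by this pattern. Psmb9, Tap1, Psmb8 and Tap2 lie side by side within 34334 bases of chromosome 17, and from KO-labelled replicate 1 to replicate 2 Tap1 was 2.23-fold higher, Psmb8 equal and Psmb9 2.38-fold lower.

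By length-corrected level, averaged over the 4 libraries, B2m (664 FPKM) stood above H2-K1 (192) and H2-D1 (157), followed by Tapbp (60.5), Tap2 (19.4), Psmb10 (15.9), Psmb8 (12.6), Tap1 (9.47), Psmb9 (3.54) and Nlrc5 (1.28). In WT alone the order from Tap2 downwards was Tap2 (30.2 ± 1.18 FPKM, SD, n = 2), Psmb8 (23.4 ± 0.55), Psmb10 (18.2 ± 1.29), Tap1 (13.9 ± 1.29), Psmb9 (6.39 ± 0.11) and Nlrc5 (2.13 ± 0.32). In the KO-labelled cultures, Psmb10 (13.5 ± 0.62) stood above Tap2 (8.50 ± 0.91), Tap1 (5.05 ± 3.01) and Psmb8 (1.90 ± 0.12). H2-K1 (57.0 ± 26.5), Tapbp (45.9 ± 26.9) and H2-D1 (42.7 ± 23) could not be ordered there beyond their spread.

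Other class I and class I-like heavy chains had log2 fold changes from -5.90 to 0.94. The lowest was H2-Q6, with 238 and 394 normalized counts in WT, against 1.07, below the detection floor, and 11.7 under the KO label. Of 22 such genes 16 were in the table and 15 of the 16 had a log2 fold change below 0. These include H2-Q10, at or below the floor in every library, and H2-Q1, so in every library but WT replicate 1. At an unadjusted p under 0.05, 10 of the 16 were lower, against 9.18% of all tested genes. Limma called 0 and DESeq2 called 6 as lower, against 4.8%. Their median log2 fold change was -2.43. H2-T23, which encodes Qa-1, a ligand of natural killer cell receptors, was at 2816 and 2355 normalized counts in WT, against 417 and 81.1 under the KO label. KO-labelled replicate 2 was the lowest library, the reverse of H2-K1 and H2-D1 (log2 fold change -3.80, limma adjusted p = 0.182). H2-Q4 was at 2558 and 3025 normalized counts in WT, against 390 and 541 under the KO label (-2.60, adjusted p = 0.102). H2-Q7, the Qa-2 gene, was at 132 and 209 normalized counts in WT, against 4.28 and 61.3 under the KO label (-3.20, adjusted p = 0.355). H2-T22 differed less, with 1501 and 1536 against 761 and 545 normalized counts (-1.24, adjusted p = 0.232). Fcgrt, the neonatal Fc receptor heavy chain, was spread widely in the KO-labelled cultures, at 857 and 81.1 normalized counts against 1401 and 1530 in WT (-2.46, adjusted p = 0.395). H2-Q7 was among the genes that share stretches with the heavy chains, so its count is uncertain in the same way.

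Factors of peptide supply and folding did not have this pattern as a list. Of 9 genes, 3 were below 0 and 6 above 0 in log2 fold change, with a median of 0.29. For 3 both KO-labelled cultures were below both WT libraries and for 3 above, against 25.4% and 22.5% of all tested genes. At an unadjusted p under 0.05, 1 was lower, against 9.18% of all tested genes. That gene was Psme1, a subunit of the interferon-inducible proteasome activator PA28, named after its values were seen, with 2455 and 2372 normalized counts in WT and 1414 and 899 under the KO label (log2 fold change -1.10, limma adjusted p = 0.284). Psme2 and Tapbpl, also named after their values were seen, were below 0 too. Psme2 was at 1352 and 1641 normalized counts in WT, against 1045 and 1055 under the KO label (-0.50, limma adjusted p = 0.488). Tapbpl was at 445 and 522 against 375 and 215 (-0.76, adjusted p = 0.468). The chaperones at the top of this list had values above those of WT in both KO-labelled cultures or close to them. Calr (calreticulin) was at 9159 and 12673 normalized counts in WT, against 14384 and 17295 under the KO label, and Pdia3, the oxidoreductase that binds tapasin, 9095 and 10591 against 12510 and 16398. Canx (log2 fold change 0.45) and Hspa5 (0.35) were not called either.

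Among 13 transcription factors known to act on class I promoters, 7 were below 0 and 6 above 0 in log2 fold change, with a median of -0.03. At an unadjusted p under 0.05, 2 were lower, against 9.18% of all tested genes. Limma called 0 and DESeq2 called 1 as lower, against 4.8% of the genes it tested. Irf1, which binds the interferon element of class I promoters, was at 1331 and 1354 normalized counts in WT, against 520 and 609 under the KO label (log2 fold change -1.25, SE 0.29, limma adjusted p = 0.211). Rela, Rfxap and Nfyc, the other genes at the top of this list, had log2 fold changes of -0.03, 0.08 and 0.40. Among 13 genes of interferon signalling, 11 were in the table, with 7 below 0, 4 above 0 and a median of -1.05. At an unadjusted p under 0.05, 6 were lower, against 9.18% of all tested genes. Limma called 0, while DESeq2 called 3 as lower, against 4.8%. Stat2 and Irf9, named after their values were seen, were among these 3. Stat2 was at 2503 and 2725 normalized counts in WT, against 358 and 323 under the KO label (log2 fold change -2.94, limma adjusted p = 0.0777). Irf9 was at 2211 and 2463 against 823 and 352 (-2.11, adjusted p = 0.197). The interferon gamma receptor chain Ifngr1 was at 2003 and 2514 normalized counts in WT, against 1122 and 967 under the KO label (-1.11, adjusted p = 0.248). Its partner Ifngr2 had 804 and 1243 against 838 and 1236 (0.03). Ifnar1 (0.29) and Jak1 (0.33) were slightly above 0. The interferon genes Ifnb1 and Ifng were not analysed here.

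**Figure D4:**
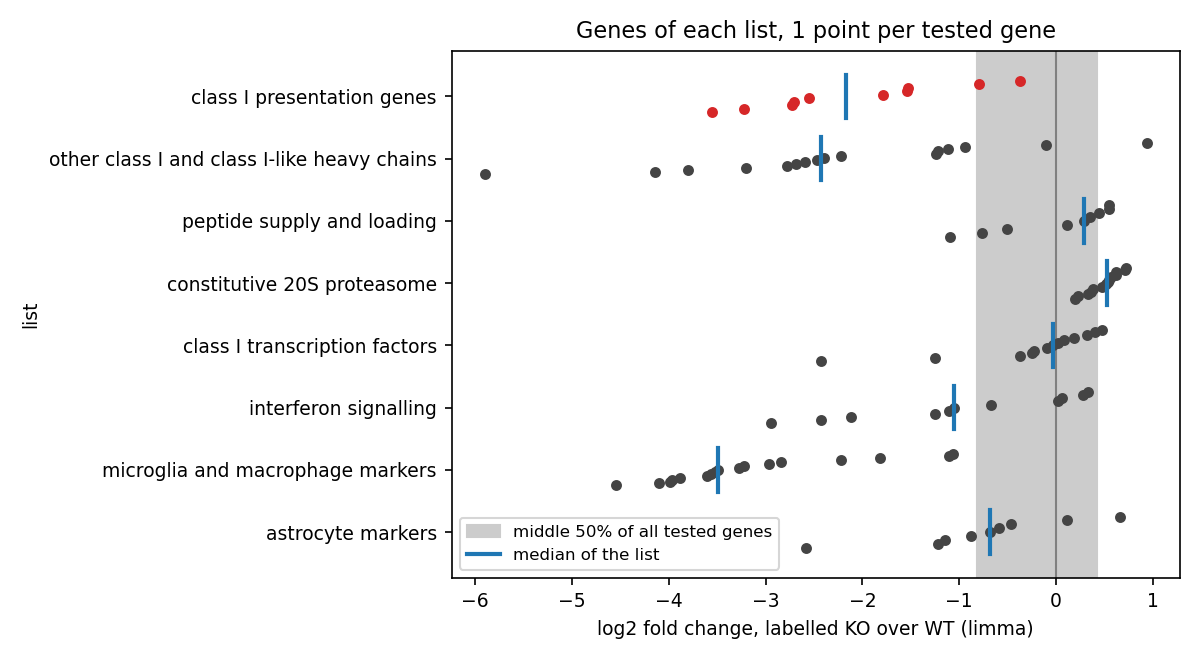
Limma log2 fold change between the labels for every tested gene of 8 lists, 1 point per gene, with the list median as a blue line and the middle 50% of all tested genes as a grey band. The class I presentation genes (red, median -2.16) and the other class I heavy chains (-2.43) lie mostly left of the band. The median of the peptide supply and loading genes (0.29) lies within it and that of the constitutive proteasome (0.53) just right of it. The microglia and macrophage markers (-3.49) lie furthest left.

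Markers of microglia, which also express class I genes, were detected in all cultures and had values that moved with the label. Of 18 microglia and macrophage markers 17 were in the table, and 17 of the 17 had a log2 fold change below 0 (median -3.49). For 16 both KO-labelled cultures were below both WT libraries, against 25.4% of all tested genes. At an unadjusted limma p under 0.05, 13 were lower, against 9.18% of all tested genes. With adjustment limma called 0, while DESeq2 called 12 as lower, against 4.8% of the genes it tested. The summed level of the 17 markers was 86.0 and 150 FPKM in WT and 28.0 and 17.7 under the KO label. The defining microglial markers P2ry12 and Tmem119, singled out after their values were seen, were low, P2ry12 at 6.40 and 4.60 normalized counts in WT and 0 and 0.90 under the KO label, and Tmem119 at 2.13 and 38.6 against 8.56 and 1.80. In bulk RNA fewer cells of a type and less RNA per cell cannot be told apart. Between the WT libraries the marker sum was 1.74-fold higher in replicate 2, where 8 of 10 members were higher too, none by more than 1.29-fold. Between the KO-labelled cultures it was 1.58-fold higher in replicate 1, as were Tap2, Tapbp and Psmb9 by over 1.2-fold, while H2-K1, H2-D1, B2m, Tap1 and Nlrc5 were lower there. The part of microglia in the difference between the labels was not tested. Of 6 T and NK cell markers 0 were analysed here, and 4 of 6 endothelial markers were in the table, with a summed level of at most 1.38 FPKM in any library. The summed level of 6 fibroblast and mural cell markers (17 to 28.6 FPKM) overlapped between the labels. At an unadjusted p under 0.05, 2 of them were lower and 1 higher, against 9.18% and 4.54% of all tested genes. The summed level of 6 neuron markers (7.69 to 17.2 FPKM) overlapped too and was mostly Map2 and Tubb3. Yet 4 of the 5 tested were higher in both KO-labelled cultures than in either WT library, against 22.5% of all tested genes. The median log2 fold change of the 5 was 1.80. Tubb3 was at 52.3 and 80.9 normalized counts in WT, against 170 and 307 under the KO label (limma adjusted p = 0.268, DESeq2 0.0421). The summed level of 7 oligodendrocyte lineage markers, mostly Olig1 and Olig2, was 153 and 228 FPKM in WT and 370 and 231 under the KO label, while 5 of the 7 had a log2 fold change below 0 (median -0.72). Cspg4 was at 330 and 413 normalized counts in WT, against 39.6 and 128 under the KO label (log2 fold change -2.35, limma adjusted p = 0.253, DESeq2 0.0307). The part of these cell types in the members' difference was not tested. Tubb3 and Cspg4 were singled out after their values were seen.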

How the data were processed

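RNA was sequenced as paired-end Illumina reads, which the authors filtered and aligned to mm10 (the build also named in the submitters' processing notes). The aligner, the counting program and its strand setting are not given in the sources used here. The deposited table holds a signal for each gene in each library and is titled as FPKM. All values (100%) were within 0.01 of a whole multiple of the value of 1 read, so they are read counts scaled by 1 factor per library (0.934 to 1.11), and whole reads were recovered. The planned test on the values as deposited was kept. Columns in which the authors gave genotype means, their log2 fold change and their p-value, raw and adjusted, were deposited too and were not used here, unlike gene positions and lengths. Positions of 7 of the 10 members equal those of GENCODE M21 on GRCm38.

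Groups and replicate numbers were taken from the sample titles. Limma 3.58.1 in R 4.3.3 (lmFit, eBayes with a trend) was fitted to log2(normalized count + 1) for 22094 genes with a mean of at least 1. FPKM was computed from recovered reads, deposited gene lengths and total reads on genes. Ratios were compared by exact permutation over libraries. edgeR 4.0.16 and DESeq2 1.42.0 were run on recovered reads. The fits were tested on simulated data. Alternatives were pseudocounts of 0.1 and 5, no filter and a mean of at least 10, TMM, quantile and equal-sum scaling, eBayes without a trend, a replicate block and leaving out each library. Named genes were the 10 members, the 4 genes of each list with the highest FPKM, a few fixed partners and regulators, and checks of the labels. A gene named by this rule is not reported here. Members and lists were chosen with earlier results of these data known. Figures were drawn with matplotlib 3.10.9.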

Additional observations from a re-analysis of the deposited data

How the results depend on the processing

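All 10 members had a log2 fold change below 0 under each of the 15 alternatives run. DESeq2 on the recovered reads called 7 members and 1106 genes at an adjusted p under 0.05, and the 14 other alternatives called 0 of either. The number of members lower at an unadjusted p under 0.05 was 8, and it was 5 to 9 with 1 library left out, 5 without WT replicate 1 and 5 without WT replicate 2. Where 1 library was left out, the remaining library of that label was assumed to vary like the other label. The median log2 fold change of the members was -2.16, and lay between -2.37 and -1.77 with 1 library left out, the latter without labelled KO replicate 1. DESeq2 gave a median of -2.05. The count of members without overlap was 10 under TMM, quantile and equal-sum scaling. The share of all tested genes was 25.4% on the deposited values and was not counted under those scalings. Ratios between subunits kept their direction, with ranges of -4.47 to -2.99 for Psmb9 over Psmb6, -4.37 to -4.00 for Psmb8 over Psmb5, -1.29 to -0.92 for Psmb10 over Psmb7, 0.87 to 1.33 for B2m over the heavy chains and 0.09 to 0.27 for H2-K1 over H2-D1 on the log2 scale. Deviations of libraries with the same replicate number had a correlation of -0.08 over 22094 genes, so the numbers were not taken as pairs. With the replicate block, 0 genes were called and 8 members were lower at an unadjusted p under 0.05, against 8.24% of all tested genes. With 2 libraries per label, no exact permutation test could give a p below 0.333. Of all genes at an unadjusted p under 0.05, 1004 were higher and 2028 lower, against 1387 and 1550 after quantile normalization.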
